A study of Mus musculus with 6 samples.

Results

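The S100 genes encode small calcium-binding proteins, each with a pair of EF-hand loops, that act mostly as dimers. Calcium binding opens a hydrophobic face with which many of them hold target proteins, among them annexins and cytoskeletal proteins, and several are also released from cells and bind receptors such as Ager (RAGE) and Tlr4. The 10 genes described here, S100a1, S100a4, S100a6, S100a8, S100a9, S100a10, S100a11, S100a13, S100a14 and S100a16, were taken by name from the 48526 genes counted in each library. All 10 were in the count tables and 9 passed the filter on low counts. Of these 9, S100a1, S100a8 and S100a11 were higher in KO than in WT cultures, by 1.42-fold, 3.17-fold and 1.29-fold, and 0 were lower.

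RNA was sequenced from primary renal tubular epithelial cells grown from digested kidney cortex of mice aged 4 to 5 weeks, and all 6 cultures received 20 ng/ml EGF, a growth factor, besides the steroid hydrocortisone (100 nM). The 3 KO cultures came from Setd2(F/F)Ksp-Cre+ mice, in which the Ksp-cadherin (Cdh16) promoter expresses Cre in tubule epithelium. The 3 WT cultures came from Setd2(F/F) littermates, which carry the same floxed alleles without Cre. Setd2 encodes the enzyme that trimethylates lysine 36 of histone H3. Cre was present in every KO culture and in no WT culture, so effects of Cre and of the deletion cannot be told apart. The labels do not say that each replicate was a different animal, and p-values therefore measure only how these libraries vary, which may be technical in part.

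Library totals ran from 86078636 to 106974842 counts. Setd2 had 163, 154 and 158 CPM (counts scaled to a common library size with TMM factors) in KO replicates 1 to 3, against 185, 168 and 152 CPM in WT replicates 1 to 3, and its edgeR adjusted p was 0.481. Counts over the whole gene do not check a deletion of part of it. Markers of tubular epithelium (Cdh16, Pax8, Epcam, Krt8, Krt18 and Cdh1) summed to 7192 to 7263 CPM in KO libraries and to 6270 to 7296 CPM in WT libraries, and 1 of the 6, Cdh16, was higher (926, 910.3 and 815 CPM in KO replicates 1 to 3, against 748, 709 and 748 CPM in WT replicates 1 to 3; edgeR adjusted p = 0.0366). Proximal tubule markers summed to 36.7 to 55.8 CPM in KO and 23.1 to 37.5 CPM in WT libraries, with Slc34a1 at 0.0113 CPM or less. Of 3 tested, Lrp2 and Aqp1 were higher. The groups overlapped for Aqp1, with 14.5 CPM in KO replicate 1 and 15.3 CPM in WT replicate 1. Cubn was not called, and its KO libraries all stood below its WT libraries (6.93 to 7.31 against 7.67 to 8.73 CPM). Markers of the loop, distal tubule and collecting duct summed to 34.6 to 40.7 CPM in KO and 19.2 to 22.5 CPM in WT libraries (3 of 7 higher). The largest part of these sums was Hsd11b2, which averaged 23.0 CPM in KO and 10.2 CPM in WT libraries. Umod, Slc12a1, Calb1 and Aqp2 were not called, and Aqp2 averaged lower in KO (0.0886 against 0.119 CPM). Endothelial markers summed to 14.3 to 24.2 CPM in KO and 8.13 to 10.1 CPM in WT libraries (4 of 6 higher), and podocyte markers to 149 to 179.9 CPM in KO and 91.5 to 94.7 CPM in WT libraries (4 of 5 higher). Most of the podocyte sums was Podxl, which averaged 139 CPM in KO and 79.0 CPM in WT libraries. Beside these counts of markers, 12.0% of all tested genes were higher and 9.08% were lower in KO cultures. The part of these cell types in the S100 values was not tested. Xist, the RNA of the inactive X chromosome, had 507 and 606 CPM in KO replicates 2 and 3, and 0.386 CPM in KO replicate 1 and 0.348 to 0.683 CPM in the WT libraries. The labels give no sex, so for the S100 genes and the related gene lists, results are also given without those 2 KO libraries where that ends a call. Apart from Cd68, the calls of cell type markers come from all libraries and were not repeated without those 2.

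Over all 17571 genes tested with edgeR's quasi-likelihood test, 21.0% passed a Benjamini-Hochberg adjusted p of 0.05, with 12.0% higher and 9.08% lower in KO cultures. These were 3698 genes, against 1683 without KO replicate 1, 1933 without KO replicate 3 and 907 without KO replicates 2 and 3. Beside these shares, 3 of the 9 tested S100 genes were higher and 0 of 9 were lower. The count of lower members was also 0 at an unadjusted p of 0.05, and 0 with DESeq2 and with limma-voom. The median log2 fold change of the 9 members was 0.20, beside -0.01 over all genes tested. The 3 KO libraries all stood above the 3 WT libraries for 4 of the 9 members, a pattern that 20.6% of all tested genes showed. All KO libraries stood below all WT libraries for 0 of the 9, and for 21.3% of all tested genes. With KO replicates 2 and 3 left out, 1 member, S100a8, passed the threshold, while the log2 fold changes of S100a1 (0.57 ± 0.16, SE) and S100a11 (0.50 ± 0.13, SE) were no smaller than with all libraries (0.51 and 0.36). That fit compares 1 KO library with 3 WT libraries and assumes that the KO library varies as the WT libraries do.

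**Figure D1:**
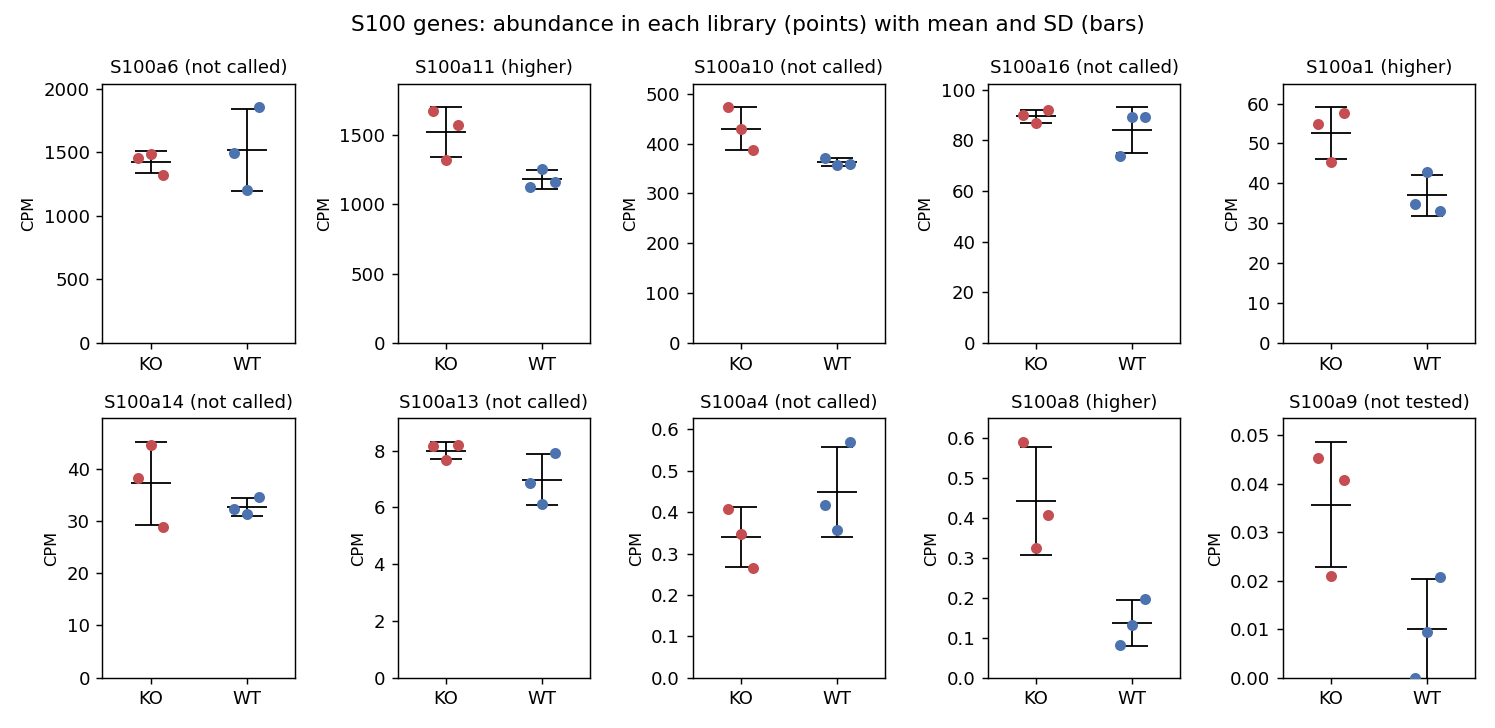
Abundance of each S100 gene in CPM (vertical axes, from 0) in the 3 KO libraries (red points, left) and the 3 WT libraries (blue points, right), with the mean and SD as bars; titles give the edgeR call. The KO points lie above all WT points for S100a1, S100a8, S100a9, S100a10 and S100a11, and the groups overlap for the other 5 genes.

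S100a11 was the most abundant member per length of exon in both groups. Its protein binds annexin A1 and takes part in membrane repair and in the growth control of epithelial cells. The gene (ENSMUSG00000027907) lies on the plus strand of chromosome 3, 93520488 to 93526287 in mm10. It had 1668, 1317 and 1567 CPM in KO replicates 1 to 3, against 1123, 1255 and 1157 CPM in WT replicates 1 to 3. Every KO library was above every WT library, with KO replicate 2 the closest to them. The means were 1517 ± 181 CPM in KO and 1178 ± 68.6 CPM in WT cultures (SD, n = 3 each). Its log2 fold change was 0.36 ± 0.10 (SE; edgeR adjusted p = 0.0239). The direction held in 17 of 17 alternatives and the call in 14. The edgeR adjusted p was 0.0941 without KO replicate 1, 0.0756 without KO replicate 3 and 0.058 without KO replicates 2 and 3, with log2 fold changes of 0.31, 0.34 and 0.50 in that order. A processed pseudogene on chromosome 12, S100a11-ps, which could take reads of the gene, averaged 0.311 CPM in KO and 0.222 CPM in WT libraries.

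The RefSeq table of promoters (GRCm38.p6) held windows of 300 bases, from 250 before to 50 after the annotated start, for 8 of the 10 members. The windows of the 3 genes that were higher, and that of S100a6 as an abundant gene that was not called, are printed 5′ to 3′ in the direction of the gene. Capitals mark matches to any of 3 motifs on either strand, with no overlaps between motifs in these windows. The motif of the AP-1 element was searched as TGANTCA. For the TATA element the letters were TATAAA. The GC element was spelled GGGCGG. The S100a11 window is chr3:93520246-93520545 on the plus strand, that of S100a8 is chr3:90668821-90669120 on the plus strand, that of S100a1 is chr3:90514281-90514580 on the minus strand and that of S100a6 is chr3:90612644-90612943 on the plus strand.
S100a11: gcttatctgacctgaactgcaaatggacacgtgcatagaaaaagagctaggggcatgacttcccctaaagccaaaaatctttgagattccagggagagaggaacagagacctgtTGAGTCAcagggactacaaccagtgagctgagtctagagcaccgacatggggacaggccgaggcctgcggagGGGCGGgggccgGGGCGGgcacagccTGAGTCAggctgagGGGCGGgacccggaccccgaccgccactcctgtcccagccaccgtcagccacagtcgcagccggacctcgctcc
S100a8: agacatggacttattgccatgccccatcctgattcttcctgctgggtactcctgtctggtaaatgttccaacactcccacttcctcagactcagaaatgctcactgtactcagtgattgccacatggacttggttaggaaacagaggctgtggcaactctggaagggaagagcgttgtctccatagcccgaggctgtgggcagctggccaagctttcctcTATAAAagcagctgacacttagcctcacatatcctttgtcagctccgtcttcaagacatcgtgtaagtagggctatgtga
S100a1: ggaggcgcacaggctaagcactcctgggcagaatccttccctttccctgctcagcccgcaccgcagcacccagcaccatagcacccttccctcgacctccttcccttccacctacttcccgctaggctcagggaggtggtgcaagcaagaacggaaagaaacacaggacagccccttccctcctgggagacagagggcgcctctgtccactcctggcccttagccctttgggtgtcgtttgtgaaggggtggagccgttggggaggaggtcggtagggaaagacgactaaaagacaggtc
S100a6: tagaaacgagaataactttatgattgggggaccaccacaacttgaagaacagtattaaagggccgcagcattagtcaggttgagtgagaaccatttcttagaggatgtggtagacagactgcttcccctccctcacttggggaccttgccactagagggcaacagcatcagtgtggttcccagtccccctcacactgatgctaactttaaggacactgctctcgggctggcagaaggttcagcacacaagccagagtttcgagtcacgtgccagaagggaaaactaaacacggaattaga

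The S100a11 window held TGANTCA at 136 and 38 bases upstream of the start and GGGCGG at 64, 52 and 24 bases upstream. The S100a8 window held TATAAA at 30 bases upstream. The windows of S100a1 and S100a6 held none of these letters. Among the 8 members with a window, TGANTCA was found for 2 (S100a11 and S100a16), TATAAA for 3 (S100a4, S100a8 and S100a9) and GGGCGG for 3 (S100a9, S100a11 and S100a16). S100a16 had a window at chr3:90537004-90537303 with no match and another at chr3:90540896-90541195 that held its matches. A member was counted if any of its windows matched, while the shares that follow are per window. Of the 32851 windows of this length in the table, 7.81% held TGANTCA, 13.6% held TATAAA and 35.7% held GGGCGG. A match describes the letters and does not show that a factor binds there.

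S100a8 had the largest log2 fold change among the tested members and was one of the least abundant. With S100a9 it forms calprotectin, a metal-binding complex that neutrophils and other myeloid cells hold in large amounts and that signals through Tlr4 and Ager once released. The gene (ENSMUSG00000056054, chromosome 3, 90668978 to 90670035, plus strand) had 52, 31 and 40 counts in KO replicates 1 to 3, against 7, 14 and 19 counts in WT replicates 1 to 3. In CPM these were 0.590, 0.326 and 0.407 in KO libraries and 0.0811, 0.132 and 0.197 in WT libraries, with every KO library above every WT library. The log2 fold change was 1.66 ± 0.36 (SE; edgeR adjusted p = 0.00917). In the 16 alternatives that kept the gene it ran from 1.42 to 2.09, and edgeR, DESeq2 and limma-voom adjusted p-values stayed at or below 0.0467. A filter at a mean of 1 CPM removed the gene.

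S100a9 was too low to test. It had 4, 2 and 4 counts in KO replicates 1 to 3, and 0, 1 and 2 counts in WT replicates 1 to 3. A count of 0 in WT replicate 1 allows up to 0.0347 CPM (3 counts, counting error only), a level within the KO range of 0.0210 to 0.0454 CPM. With no filter on low counts the edgeR adjusted p of S100a9 was 0.404.

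Because S100a8 and S100a9 are abundant in myeloid cells, markers of those cells were read beside them. The 10 neutrophil markers summed to 3.02 to 4.66 CPM in KO libraries and to 4.89 to 5.97 CPM in WT libraries. Of these markers Mpo, Elane and Retnlg had 0 counts in all 6 libraries. Of the 3 tested, 0 were higher by edgeR and 1 was lower (Ltf), beside 12.0% and 9.08% of all tested genes. Ly6g, the largest part of the sums, averaged 2.51 CPM in KO and 3.19 CPM in WT libraries, and Ltf 0.453 and 1.76 CPM. Mmp8 averaged higher in KO (0.693 against 0.310 CPM), but its groups overlapped and it was not called. The 11 markers of macrophages and other leukocytes summed to 49.2 to 57.3 CPM in KO libraries and to 38.0 to 44.9 CPM in WT libraries. Of the 9 tested, 3 were higher (Cd68, Csf1r and Lyz2), beside 12.0% of all tested genes. For Csf1r the groups overlapped (edgeR adjusted p = 0.0491). Cd14 went the other way, averaging 6.37 CPM in KO and 8.99 CPM in WT libraries. Tyrobp barely differed (0.640 and 0.632 CPM), and neither Cd14 nor Tyrobp was called. Their part in the S100a8 result was not tested. In cultures measured in bulk, fewer cells of a type and less RNA per cell cannot be told apart.

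S100a1, known best as a calcium sensor of heart and skeletal muscle that acts on the calcium release channel and the calcium pump, was also higher. The gene (ENSMUSG00000044080, chromosome 3, 90511034 to 90514392, minus strand) had 54.8, 45.4 and 57.7 CPM in KO replicates 1 to 3, against 34.9, 42.9 and 33.0 CPM in WT replicates 1 to 3. The KO libraries all stood above the WT libraries, with KO replicate 2 and WT replicate 2 the nearest to each other. The means were 52.6 ± 6.45 CPM in KO and 37.0 ± 5.24 CPM in WT cultures (SD, n = 3 each), with a log2 fold change of 0.51 ± 0.12 (SE; edgeR adjusted p = 0.011). The call held in 14 of 17 alternatives and the direction in all 17. The edgeR adjusted p was 0.0558 when KO replicate 3 was left out, 0.0759 when high Xist was a term of the model and 0.0829 without those libraries, with log2 fold changes of 0.57 in both of the last fits.

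S100a13 lies head to head with S100a1, and 42 bases separate the 2 genes. Their promoter windows share 204 bases. Its protein takes part in the export of Fgf1 and Il1a, which lack a signal peptide. S100a13 had 8.16, 7.66 and 8.20 CPM in KO replicates 1 to 3, against 6.88, 6.14 and 7.93 CPM in WT replicates 1 to 3, so the groups overlapped. The log2 fold change was 0.20 ± 0.12 (SE; edgeR adjusted p = 0.242). Within each library, the CPM of S100a1 was 6.72, 5.93 and 7.04 times that of S100a13 in KO replicates 1 to 3, and 5.08, 6.99 and 4.17 times in WT replicates 1 to 3. These ratios overlapped (two-sided exact permutation p = 0.3, with 0.1 the smallest p that 3 against 3 libraries allow).

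S100a10, also called p11, binds annexin A2 in a tetramer at the membrane and has lost the ability to bind calcium. It had 473, 429.7 and 387 CPM in KO replicates 1 to 3, against 372, 356 and 359 CPM in WT replicates 1 to 3. The groups did not overlap, but the gene missed the threshold, with a log2 fold change of 0.25 ± 0.08 (SE; edgeR adjusted p = 0.0568). It passed in 7 of 17 alternatives, among them DESeq2 (adjusted p = 0.0357). Its partner Anxa2 had a log2 fold change of 0.03 ± 0.08 (SE; edgeR adjusted p = 0.818), which was -0.00090 without KO replicate 2. The ratio of Anxa2 to S100a10, both per kilobase of exon, was 1.02, 1.12 and 1.09 in KO replicates 1 to 3, and 1.18, 1.27 and 1.29 in WT replicates 1 to 3. The groups did not overlap, at the smallest p the design allows (two-sided exact permutation p = 0.1, adjusted p = 0.3 over the 3 ratios computed).

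S100a6 (calcyclin), which binds the ubiquitin ligase adaptor Cacybp and rises in growing cells, was the second most abundant member per length. It had 1456, 1482 and 1324 CPM in KO replicates 1 to 3, against 1493, 1205 and 1854 CPM in WT replicates 1 to 3. The KO libraries lay within the WT range, which WT replicates 2 and 3 span. Its log2 fold change was -0.09 ± 0.13 (SE; edgeR adjusted p = 0.64), and it was 0.071 without WT replicate 3. The ratio of S100a6 to S100a11, both per kilobase, was 0.326, 0.421 and 0.316 in KO replicates 1 to 3, and 0.497, 0.359 and 0.599 in WT replicates 1 to 3 (two-sided exact permutation p = 0.2, adjusted p = 0.3 over the same 3 ratios).

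S100a4, which binds nonmuscle myosin (Myh9) and is much used as a fibroblast marker under the name Fsp1, was near the lower limit of detection. It had 36, 33 and 26 counts in KO replicates 1 to 3 (0.408, 0.347 and 0.265 CPM), against 36, 38 and 55 counts in WT replicates 1 to 3 (0.417, 0.358 and 0.570 CPM). The groups overlapped, and the log2 fold change was -0.40 ± 0.28 (SE; edgeR adjusted p = 0.328). In GENCODE, 302 of its 584 exon bases (51.7%) are shared on the same strand with Gm42674. That gene has 0 exon bases of its own, 302 being shared with S100a4 and 144 with S100a3, and had 0 counts in every library. How reads in shared bases were counted is not given in the sources used here. The other 282 bases belong to S100a4 alone. The 10 markers of fibroblasts and pericytes summed to 206 to 345 CPM in KO libraries and to 144 to 188 CPM in WT libraries. Of the 8 tested, 5 were higher (Vim, Pdgfra, Pdgfrb, Col1a1 and Col3a1). The largest part of the KO sums was Vim, which averaged 122.8 CPM in KO and 36.2 CPM in WT libraries. Acta2 (56.3 and 52.8 CPM) and Tagln (59.6 and 58.7 CPM) barely differed, and neither they nor Col1a2 were called. The part of fibroblasts and pericytes in the S100a4 values was not tested.

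S100a14, a member found mainly in epithelia, and S100a16 were not called. S100a14 had 38.2, 44.6 and 28.8 CPM in KO replicates 1 to 3, against 32.3, 31.2 and 34.5 CPM in WT replicates 1 to 3. KO replicate 3 was the lowest of the 6 libraries and KO replicate 2 the highest (log2 fold change 0.19 ± 0.13, SE; edgeR adjusted p = 0.337). S100a16 had 89.9, 86.9 and 91.9 CPM in KO replicates 1 to 3, against 73.7, 89.2 and 89.4 CPM in WT replicates 1 to 3. WT replicate 1 was the lowest and the other 5 libraries lay close together (log2 fold change 0.09 ± 0.08, SE; edgeR adjusted p = 0.472).

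Per kilobase of exon, the levels of the 10 genes ran from 2969 CPM (S100a11) to 0.0684 CPM (S100a9) in KO cultures, and from 2306 to 0.0192 CPM for the same genes in WT cultures. In KO cultures S100a6 followed at 1039, S100a10 at 355, S100a1 at 75.9, S100a16 at 55.4, S100a14 at 21.5, S100a13 at 11.2, S100a8 at 0.635 and S100a4 at 0.582 CPM per kilobase. If all counted reads of S100a4 fell in the 282 bases it shares with no other gene, its level would be 1.21 CPM per kilobase in KO and 1.59 in WT cultures. Its place beside S100a8 in KO cultures therefore depends on how shared reads were counted. On all exon bases, neighbours in this order did not overlap between libraries except S100a8 and S100a4. In WT cultures the first 7 genes kept this order, S100a1 (53.3) and S100a16 (52.0) overlapped, and S100a4 (0.767) stood above S100a8 (0.197 CPM per kilobase) with no overlap. Together the 10 genes took 0.342% to 0.372% of all counts in KO libraries and 0.297% to 0.356% in WT libraries.

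**Figure D2:**
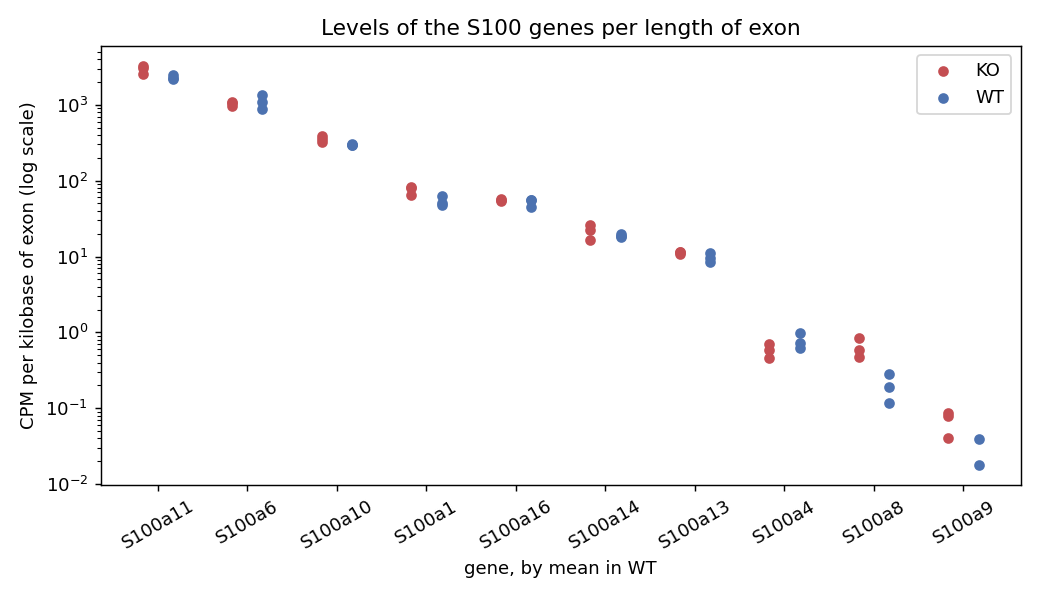
CPM per kilobase of exon (log axis) of the 10 S100 genes in each KO library (red, left of each pair) and WT library (blue, right), ordered by the mean in WT; the WT library with 0 counts of S100a9 is not drawn. S100a11, S100a6 and S100a10 are the highest in every library, and S100a4, S100a8 and S100a9 the lowest.

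All 10 genes lie on chromosome 3 in 2 clusters, which 2.82 Mb separate. The first spans 185 kb from S100a1 to S100a9 and holds 8 members and 8 other annotated genes, 2 of which were tested (S100a3 and S100a7a). The second spans 44.2 kb and holds S100a11 and S100a10 with 1 gene between them that was not tested. S100a7a, a relative of the human psoriasin genes that lies next to S100a8, was the only other gene between members that was called. It had 49.6, 43.2 and 39.4 CPM in KO replicates 1 to 3, against 28.0, 22.8 and 25.1 CPM in WT replicates 1 to 3, with no overlap. The log2 fold change of S100a7a was 0.80 ± 0.11 (SE; edgeR adjusted p = 0.000595), and it was called in 17 of 17 alternatives. The other S100 genes tested, S100a3, S100g (the calbindin of intestine and kidney that carries calcium) and S100z, were not called.

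**Figure D3:**
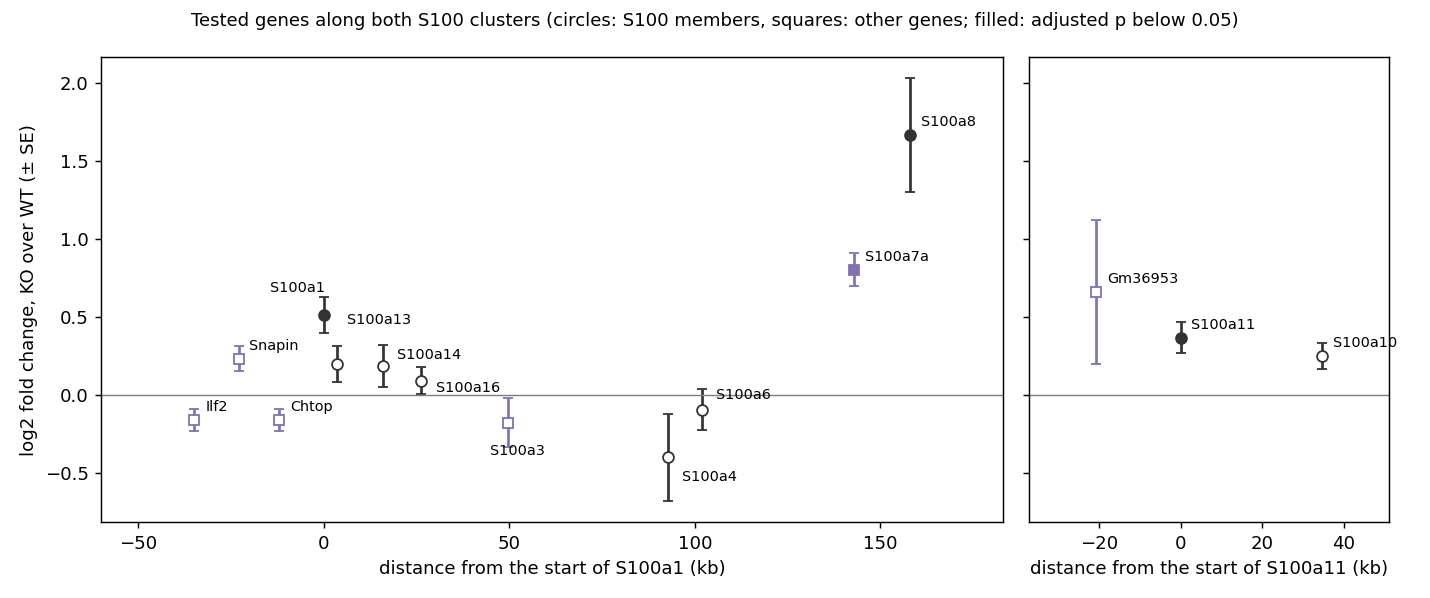
Log2 fold change of KO over WT (± SE) for tested genes in and beside both clusters, against distance in kb from the lowest coordinate of S100a1 (left panel) or S100a11 (right panel); circles are S100 members, squares other genes, and filled symbols passed an adjusted p of 0.05. S100a7a and S100a8, side by side, have the 2 largest values in the first cluster (0.80 and 1.66), and S100a3, S100a4 and S100a6 lie below 0 between them and the S100a1 end.

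Fused S100 genes, which join an S100 domain to long repeats and serve the outer layers of skin, are also on chromosome 3. Of the 7 listed 2 were tested and both were higher, beside 12.0% of all tested genes. Tchh had 5.24, 4.30 and 5.05 CPM in KO replicates 1 to 3, against 2.55, 3.37 and 3.21 CPM in WT replicates 1 to 3 (log2 fold change 0.67 ± 0.14, SE; edgeR adjusted p = 0.00826, and 0.0675 without KO replicates 2 and 3). Crnn had 0.249, 0.200 and 0.570 CPM in KO replicates 1 to 3, against 0.0579, 0.104 and 0.0414 CPM in WT replicates 1 to 3 (log2 fold change 2.29 ± 0.50, SE; edgeR adjusted p = 0.00945, and 0.142 without KO replicates 2 and 3). Markers of squamous epithelium summed to 116 to 177 CPM in KO libraries and to 42.1 to 48.6 CPM in WT libraries. Of 5 tested, 2 were higher (Ivl and Sprr1a), beside 12.0% of all tested genes. Krt5 and Krt10 were not called, and Krt14 was too low to test. The part of squamous cells in the S100 values was not tested.

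Annexins bind membranes in the presence of calcium, and several pair with S100 proteins. Of 11 tested, 2 were higher, 2 were lower and 7 were not called, beside 12.0% higher and 9.08% lower among all tested genes. Anxa5, the most abundant per kilobase, had 1224, 1100.4 and 1044 CPM in KO replicates 1 to 3, against 885, 841 and 783 CPM in WT replicates 1 to 3 (log2 fold change 0.43 ± 0.09, SE; edgeR adjusted p = 0.00687). Anxa8 was higher by a log2 fold change of 0.42 ± 0.09 (SE; edgeR adjusted p = 0.00881). Anxa1, the partner of S100a11, was lower, with 605, 549 and 514 CPM in KO replicates 1 to 3 against 798, 802 and 803 CPM in WT replicates 1 to 3 (log2 fold change -0.53 ± 0.08, SE; edgeR adjusted p = 0.00147). Anxa3 was lower by a log2 fold change of -0.31 ± 0.08 (SE; edgeR adjusted p = 0.0216), and its adjusted p was 0.0906 without KO replicate 1 and 0.083 without KO replicate 3. Without KO replicates 2 and 3, only Anxa5 of the 4 was called, and the edgeR adjusted p was 0.111 for Anxa8, 0.116 for Anxa1 and 0.255 for Anxa3.

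**Figure D4:**
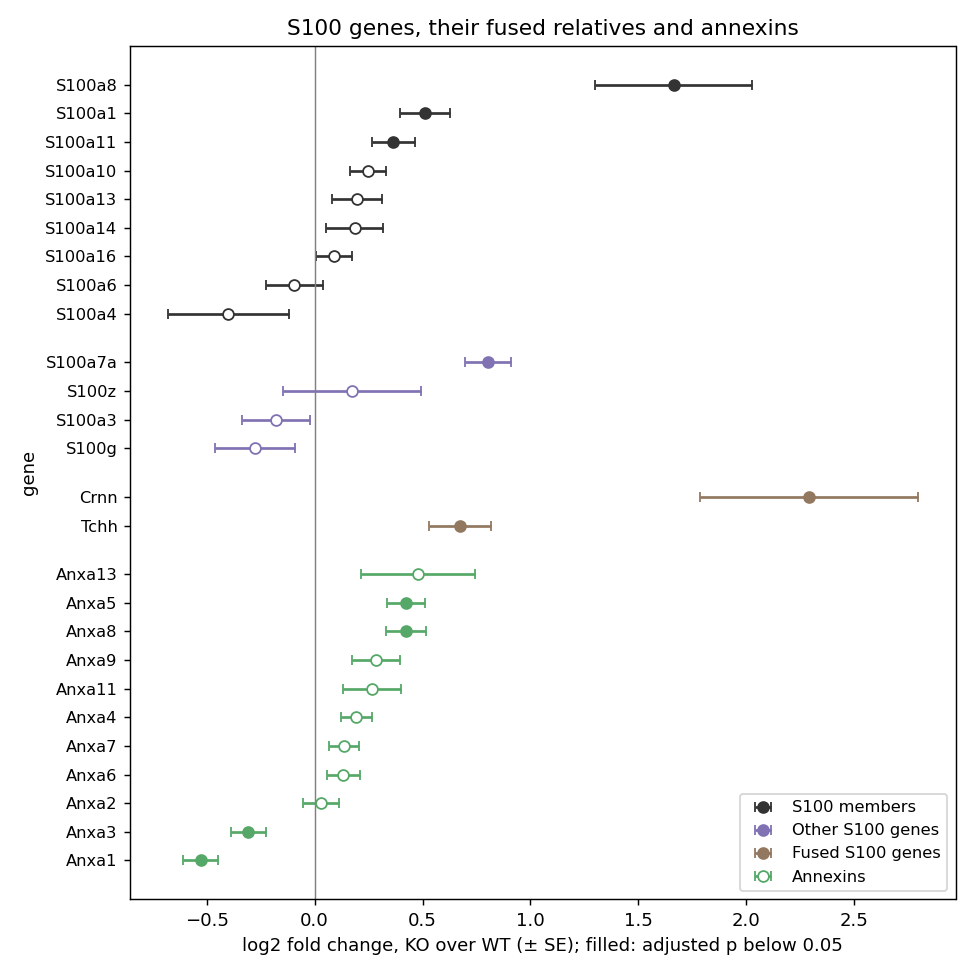
Log2 fold change of KO over WT (horizontal axis, ± SE) for the tested S100 members, other S100 genes, fused S100 genes and annexins; filled points passed an adjusted p of 0.05. S100a8 (1.66) and Crnn (2.29) lie farthest to the right, and Anxa1 (-0.53) and Anxa3 (-0.31) are the only filled points left of 0.

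Of 17 tested genes for proteins that S100 proteins bind or act with, 1 was higher and 2 were lower. With the 10 receptor genes, 6 of 27 were called, a share near the 21.0% of all tested genes. Plat, the plasminogen activator that the annexin A2 and S100a10 complex brings to the cell surface, was higher (log2 fold change 0.45 ± 0.13, SE; edgeR adjusted p = 0.0318), with 495, 484 and 487 CPM in KO replicates 1 to 3 against 455, 310.3 and 307 CPM in WT replicates 1 to 3. Dlc1, whose protein S100a10 binds, was lower (log2 fold change -0.48 ± 0.08, SE; edgeR adjusted p = 0.00184). Mdm2, the ubiquitin ligase of p53, was lower (log2 fold change -0.28 ± 0.08, SE; edgeR adjusted p = 0.0233). The Plat call held in 10 of 17 alternatives, that of Mdm2 in 12 and that of Dlc1 in 16. The edgeR adjusted p of Plat was 0.0911, 0.0663 and 0.0835 without KO replicates 1, 2 and 3, and 0.112 and 0.084 without WT replicates 2 and 3. For Mdm2 it was 0.0952 and 0.0961 without KO replicates 2 and 3, and 0.0676 without WT replicate 2, and without both KO replicates 2 and 3 it was 0.227 for Plat, 0.491 for Mdm2 and 0.0716 for Dlc1. Myh9, the most abundant of these genes per kilobase, was not called (log2 fold change 0.24 ± 0.10, SE; edgeR adjusted p = 0.128).

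Of 10 tested genes for receptors of released S100 proteins and their relatives, 2 were higher and 1 was lower, beside 12.0% and 9.08% of all tested genes. Mcam, a receptor for S100a8 and S100a9, had 11.9, 13.1 and 13.1 CPM in KO replicates 1 to 3, against 27.1, 30.5 and 34.6 CPM in WT replicates 1 to 3. The groups lay far apart, with a log2 fold change of -1.28 ± 0.10 (SE; edgeR adjusted p = 2.61e-05), called in 17 of 17 alternatives. Cd68 (log2 fold change 0.73 ± 0.18, SE; edgeR adjusted p = 0.0173) and Cd33 (1.03 ± 0.31, SE; edgeR adjusted p = 0.0372), genes of myeloid cells, were higher. Cd33 was low, with 50, 28 and 43 counts in KO replicates 1 to 3 against 17, 20 and 24 counts in WT replicates 1 to 3. The Cd68 call held in 14 of 17 alternatives and the Cd33 call in 8 of 16. The edgeR adjusted p of Cd68 was 0.0729 without KO replicate 1 and 0.0809 without KO replicate 3. That of Cd33 was 0.15 and 0.0989 without the same libraries, 0.0737 and 0.11 without WT replicates 1 and 2, and 0.0672 without KO replicates 2 and 3. Ager, Tlr4 and Bsg, the last the most abundant of the list per kilobase, were not called (edgeR adjusted p = 0.748, 0.922 and 0.871). Ager had only 19 to 39 counts in each library.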

How the data were processed

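Total RNA of 6 cultures, 3 KO and 3 WT, was made into TruSeq libraries, per the labels' protocols. The authors deposited, for each library, whole counts of reads by Ensembl gene, not normalized. Trimmomatic 0.38, STAR 2.7.1a, HTSeq 0.11.2 and mm10 are named per the submitters' processing notes. The annotation release, strand setting and treatment of shared reads have no statement in the sources used here and bear on overlapping genes such as S100a4 and on pseudogenes.

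Symbols, coordinates and exon lengths came from GENCODE M21 (GRCm38), which matched 48144 of 48526 genes. The counts went into edgeR 4.0.16 under R 4.3.3 (filterByExpr, TMM factors, quasi-likelihood test of genotype). Adjustment was by Benjamini-Hochberg over 17571 tested genes with a threshold of 0.05. The SE is the size of the log2 fold change divided by the root of F. CPM per kilobase uses the union of annotated exons. Chi-square statistics of 22.7 to 77.1 per degree of freedom between replicates showed no copied library. Counting error limits genes below about 1 CPM.

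The named genes were all members, Setd2, up to 6 called genes by smallest p and the most abundant gene of each related list, and Anxa2. Marker genes were named to describe their lists. Members and lists were chosen with earlier results of these data known.

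Alternatives were a replicate block, 3 other scalings (DESeq2 factors, totals and upper quartile), tests without a filter and at a mean of 1 CPM or more, limma-voom (limma 3.58.1), DESeq2 1.42.0, a covariate marking Xist above 10 CPM, chromosomes X, Y and M left out, and each library left out. Leaving out both libraries with high Xist was chosen after seeing the data. Figures were drawn with matplotlib 3.10.9.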

Additional observations from a re-analysis of the deposited data

How the results depend on the processing

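S100a8 and S100a7a were called in every alternative that kept them, and S100a4, S100a6, S100a13, S100a14 and S100a16 in none. The 3698 genes called became 1163 with a term for high Xist and 907 without the 2 libraries with high Xist, and leaving out each library gave 1683 to 3766. The share of calls that were higher, 56.84%, was 75.49% with that term, 80.26% without those libraries, 72.96% without KO replicate 1 and 68.34% without KO replicate 3. Both Xist fits rest on 1 KO library against the WT libraries. Without the 2 libraries the count of S100 members higher was 1 and of annexins called 1, and with the Xist term 1 annexin was called. In place of 6 partner and receptor genes, 3 were called with the Xist term, 3 without the 2 libraries, and 2 to 7 when each library was left out. The signs of 3 genes that were not called turned: leaving out each library, S100a6 ran from -0.24 to 0.071 (log2), Anxa2 from -0.00090 to 0.092 and Bsg from -0.052 to 0.10, with the turned values without WT replicate 3, KO replicate 2 and WT replicate 1. The causes were not tested. The replicate block called 3594 genes and the same 3 S100 members. Deviations of same-numbered KO and WT libraries correlated at 0.04, -0.15 and 0.03, and those of differently numbered ones at -0.11 to 0.10. With 3 libraries per group, these values cannot tell whether equal numbers share a litter or a day. Counts of 0 to 55 limit S100a4, S100a8 and S100a9, and low counts likewise limit Crnn, Cd33 and Ager.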

Other observations

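Other EF-hand proteins, which bind calcium through the same kind of loop, were read beside the S100 genes. Of 24 tested, 4 were higher and 2 were lower in KO cultures, beside 12.0% and 9.08% of all tested genes. Capn1, the large subunit of a calcium-dependent protease, had 110.0, 104 and 106 CPM in KO replicates 1 to 3, against 70.5, 86.3 and 83.4 CPM in WT replicates 1 to 3 (log2 fold change 0.41 ± 0.08, SE; edgeR adjusted p = 0.00612). Its small subunit Capns1 was higher as well (0.29 ± 0.08, SE; edgeR adjusted p = 0.0269). Rcn1 (0.48 ± 0.08, SE; edgeR adjusted p = 0.0027) and Rcn3 (0.90 ± 0.28, SE; edgeR adjusted p = 0.0396), which reside in the endoplasmic reticulum, were higher. The neuronal calcium sensors Ncald (-0.51 ± 0.11, SE; edgeR adjusted p = 0.00841) and Ncs1 (-0.39 ± 0.08, SE; edgeR adjusted p = 0.00631) were lower. Calm2, the most abundant of the list per kilobase, was not called (0.12 ± 0.10, SE; edgeR adjusted p = 0.397). The Rcn1 call held in 17 of 17 alternatives, that of Ncald in 16, those of Capn1 and Ncs1 in 15, that of Capns1 in 13 and that of Rcn3 in 10 of 16. Leaving out KO replicate 1 gave edgeR adjusted p-values of 0.0887 for Capns1, 0.132 for Rcn3 and 0.0547 for Ncald, and leaving out KO replicate 3 gave 0.0896 for Capns1 and 0.129 for Rcn3. Without KO replicates 2 and 3 they were 0.112 for Capn1, 0.204 for Capns1, 0.104 for Rcn3 and 0.132 for Ncs1. The adjusted p of Rcn3 was 0.08 without WT replicate 1 and 0.0544 without WT replicate 3.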
